A study of Mus musculus with 6 samples.

Results

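Autophagy is the route by which a cell wraps part of its own cytoplasm in a double membrane, the autophagosome, and delivers it to the lysosome for breakdown. A kinase complex starts the process, a lipid kinase complex marks the site, membrane is supplied to the growing sheet, and ubiquitin-like conjugation attaches small ATG8 proteins (the LC3 and GABARAP proteins) to it. Receptors then tie cargo such as protein aggregates or damaged mitochondria to the ATG8 proteins. In bone-forming cells autophagy is known for its part in survival and mineralisation.

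The genes described here are 37 named components of this machinery, taken from the deposited gene count table by gene name. All 37 were found among its 54433 genes, and all 37 passed the filter on low counts that left 14889 genes for testing. The table held 6 RNA sequencing libraries of MC3T3-E1 cells, a line derived from mouse calvaria that resembles osteoblasts. FR1 to FR3 came from cells resistant to 30 ppm F-. Per the labels' protocols they had been adapted stepwise in a 10 ppm F- gradient with repeats on other clones, and the labels list a 30 ppm F- gradient as their treatment. WT1 to WT3 came from wild-type cells of the same line in Dulbecco's modified Eagle medium. The base medium with serum and antibiotics was shared by both groups, and the series title speaks of fluoride-tolerant mice where the sample labels describe a cultured line. Resistance and exposure are not separated by this design. Nothing in the labels tells if libraries of the same group were grown as separate cultures, so the p-values reflect only library-to-library spread, which may be technical.

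The libraries summed to 19246119 to 25185697 expected counts in FR and to 25700497 to 27140662 in WT. Members had between 38 and 16457 counts in a library, against a level of 3 counts that equals 0.110 to 0.156 CPM (counts scaled to a common library size with TMM factors), which covers counting error only. The osteoblast label was checked on 9 markers, of which 5 could be tested and all 5 were lower in FR. The summed level of the 9, mostly Col1a2 and Col1a1, was 4170 to 4220 CPM in FR and 16000 to 16300 CPM in WT. The tested markers fell by unlike amounts. Runx2 was at 56.5 to 57.9 CPM in FR and 68.65 to 70.9 CPM in WT. Cdh11 was at 12.75 to 14.1 CPM in FR and 393 to 407 CPM in WT. Sp7, Alpl and Bglap had at most 8 counts in any library, and Ibsp had 0 in all 6. Of markers of other cells, those of macrophages and osteoclasts summed to 9.03 to 10.5 CPM in FR and 0.741 to 1.59 CPM in WT. Both tested ones, Csf1r and Cd68, were higher, while Adgre1 was at 0 in each FR library and Ptprc had 3 to 5 counts there. Skeletal muscle markers, mostly Des, summed to 6.38 to 7.15 CPM in FR and 1.87 to 2.10 CPM in WT, with Myod1 at 0 in all libraries. Chondrocyte markers, mostly Sox9, summed to 48.4 to 51.4 CPM in FR and 71.2 to 74.2 CPM in WT. The adipocyte, endothelial and epithelial lists summed to at most 1.66 CPM. The part of such shifts in the results was not tested, and in bulk RNA fewer cells of a type and less RNA per cell cannot be told apart.

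The autophagy genes moved in both directions and by small amounts. With edgeR's quasi-likelihood test adjusted over all 14889 genes, 13 members were higher and 12 lower in FR, and 12 did not pass. These 25 called members are 67.6% of the 37, where 70.1% of all tested genes were called (34.6% higher and 35.5% lower), so the share called is near that of any gene in these libraries. A change of at least 1.5-fold besides was found in 3 members (8.11%), against 30.4% of all tested genes. The 3 were Atg12, which rose 1.87-fold, and Atg3 and Gabarapl1, which fell to 0.533 and 0.520 of their WT levels. The median absolute log2 fold change was 0.22 over the members and 0.35 over all tested genes, and the median with sign was 0.01 and 0.00. No member changed 2-fold, and 20.6% of all tested genes changed by more than Gabarapl1 did. CPM ranges of the groups did not overlap for 27 members (73.0%) and for 72.4% of all tested genes.

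**Figure D1:**
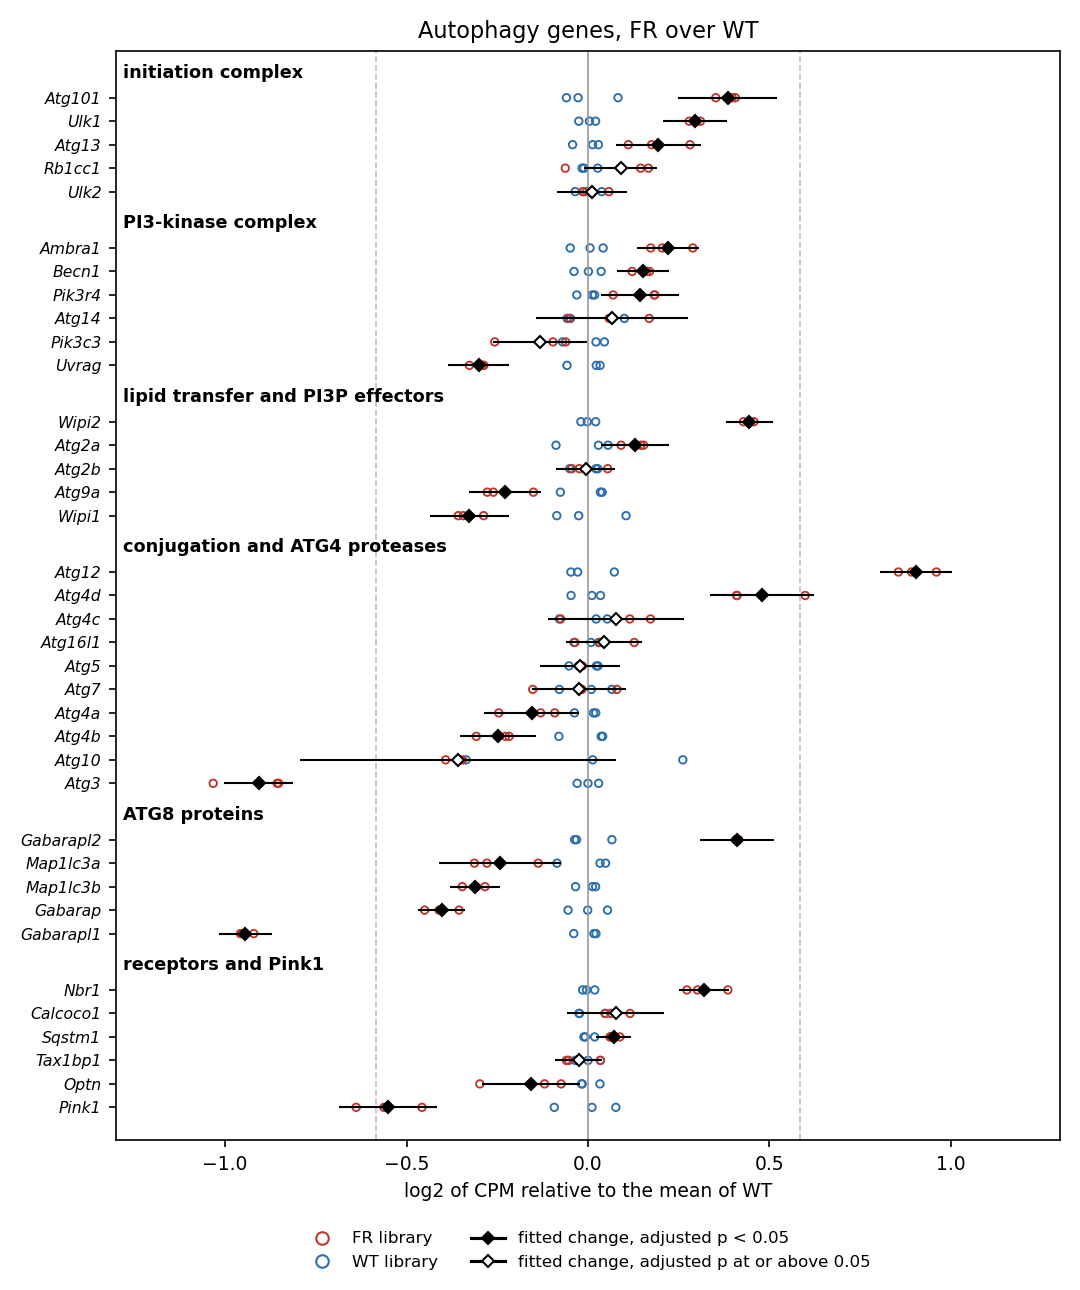
Log2 CPM of each library relative to the WT mean (open circles, FR red and WT blue) and the fitted log2 fold change of FR over WT with its 95% interval (diamonds, filled where the edgeR adjusted p is under 0.05) for the 37 genes, grouped by step. Dashed lines mark 1.5-fold, which Atg12 passed upwards and Atg3 and Gabarapl1 passed downwards.

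**Figure D2:**
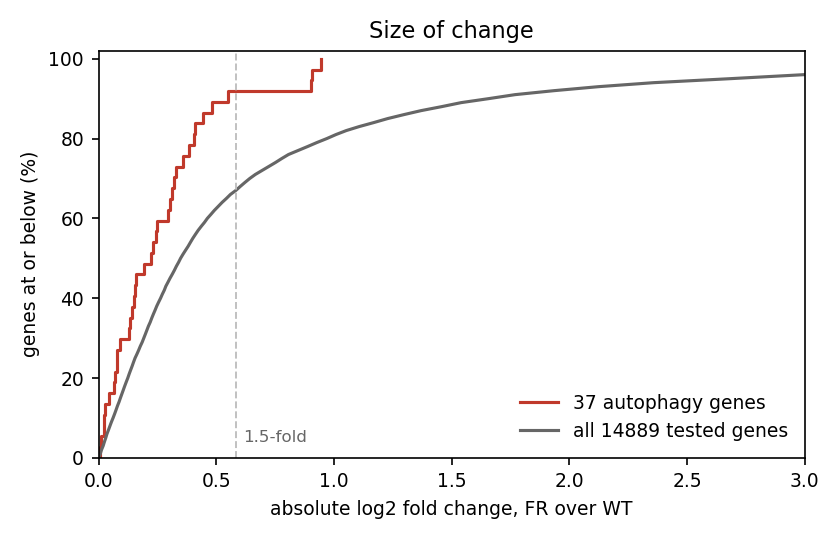
Share of genes (%) at or below each absolute log2 fold change of FR over WT, for the 37 autophagy genes and all 14889 tested genes, with 1.5-fold dashed. The x axis ends at a log2 change of 3, and the members end at Gabarapl1 with 0.94.

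The initiation complex holds the kinases ULK1 and ULK2, the scaffold RB1CC1 (also called FIP200) and the regulatory subunits ATG13 and ATG101. In FR 3 of its 5 genes rose and none fell. The counts by step, here and below, stand beside 34.6% of all tested genes higher and 35.5% lower. Ulk1 (ENSMUSG00000029512) was at 54.7, 53.9 and 55.1 CPM in FR1 to FR3 and at 45.1, 44.5 and 43.6 CPM in WT1 to WT3. Its libraries did not overlap and the log2 fold change was 0.30 ± 0.04 (SE; edgeR adjusted p = 5.42e-07). Atg101 (ENSMUSG00000037204), whose product stabilises ATG13, had 23.5, 22.6 and 23.3 CPM in FR and 17.0, 17.4 and 18.8 CPM in WT, a log2 fold change of 0.38 ± 0.07 (SE; edgeR adjusted p = 1.03e-05). Every FR library was above every WT library for both genes. Atg13 averaged 31.3 ± 1.88 CPM in FR and 27.5 ± 0.707 CPM in WT (SD, n = 3 each; log2 fold change 0.19 ± 0.06 SE; edgeR adjusted p = 0.00384). Without FR2 the adjusted p of Atg13 was 0.0574, the highest over 16 alternatives, of which the lowest was 0.00245.

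Ulk2, the close relative of Ulk1, was at 42.3 ± 1.2 CPM in FR and 42.0 ± 1.07 CPM in WT (SD, n = 3 each), and the 95% interval of its log2 fold change ran from -0.09 to 0.11. Its interval lies below that of Ulk1, which ran from 0.21 to 0.38, though the difference between the paralogues was not tested. Rb1cc1 had 59.3, 68.5 and 69.5 CPM in FR and 63.1, 61.5 and 61.2 CPM in WT, so that FR1 lay below the WT libraries and the others above (edgeR adjusted p = 0.105). Without FR1 its adjusted p was 0.00359, and over the 16 alternatives it ran from 0.00359 to 0.438.

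The lipid kinase complex around PIK3C3 (also called VPS34) makes phosphatidylinositol 3-phosphate (PI3P), the lipid that recruits later factors. Becn1 encodes its regulatory subunit Beclin 1, Pik3r4 the subunit VPS15, and Atg14 and Uvrag encode alternative partners that direct the complex to early autophagosomes or to endosomes. Ambra1 encodes a Beclin 1 binding protein. In FR, 3 of these 6 genes rose, 1 fell and 2 did not pass. The gene that fell was Uvrag (ENSMUSG00000035354), with 52.1, 52.0 and 50.7 CPM in FR and 64.6, 61.1 and 65.1 CPM in WT. All 3 FR libraries lay below the WT libraries (log2 fold change -0.30 ± 0.04 SE; edgeR adjusted p = 2.40e-07).

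Ambra1 (ENSMUSG00000040506) was at 69.5, 64.2 and 65.6 CPM in FR and 58.6, 55.0 and 57.1 CPM in WT. It rose by a log2 fold change of 0.22 ± 0.04 (SE; edgeR adjusted p = 3.34e-05), again with no overlap. Becn1 averaged 92.1 ± 1.64 CPM in FR and 83.0 ± 2.15 CPM in WT (SD, n = 3 each; edgeR adjusted p = 0.000381). Atg14, the partner used at the autophagosome, had 9.61 ± 0.734 CPM in FR and 9.21 ± 0.574 CPM in WT, with overlapping libraries and an interval of the log2 fold change from -0.14 to 0.27. Pik3r4 rose by a log2 fold change of 0.14 ± 0.05 (SE; edgeR adjusted p = 0.0176), a call that ended without FR1 (adjusted p = 0.0788), FR3 (0.0778) or WT2 (0.0997), with no filter (0.0705) and with DESeq2 (0.0738), in a range of 0.00802 to 0.0997 over 16 alternatives. Pik3c3, the catalytic subunit, had 24.0 ± 1.70 CPM in FR and 26.3 ± 1.10 CPM in WT (SD, n = 3 each; edgeR adjusted p = 0.0620), and passed without FR2 (0.0482), FR3 (0.0360) or WT2 (0.0287) and with no filter (0.0374), with 0.232 as the highest value over the alternatives.

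After PI3P is made, WIPI proteins bind it, ATG2 proteins carry lipid from the endoplasmic reticulum to the growing membrane, and ATG9A, the transmembrane protein of the core machinery, spreads lipid between its leaflets. Wipi2 (ENSMUSG00000029578), whose product recruits the ATG16L1 complex to PI3P, was at 134, 137 and 136 CPM in FR and 101.4, 98.6 and 99.8 CPM in WT. Wipi1 (ENSMUSG00000041895), its paralogue, had 33.9, 35.6 and 34.2 CPM in FR and 42.7, 40.9 and 46.7 CPM in WT. The paralogues thus moved apart, Wipi2 with a log2 fold change of 0.44 ± 0.03 (SE; edgeR adjusted p = 4.22e-13) and Wipi1 with -0.33 ± 0.05 (SE; edgeR adjusted p = 3.31e-06). The ratio of Wipi2 to Wipi1 counts was 3.97, 3.85 and 3.98 in FR and 2.38, 2.41 and 2.14 in WT, without overlap. This ratio and those below were picked after their values were seen, so they describe the libraries and no test is given. They are ratios of counts without regard to gene length. They show a change between groups and not which gene has more transcripts.

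Atg9a fell, with 42.0 ± 2.03 CPM in FR and 49.2 ± 2.19 CPM in WT (SD, n = 3 each; edgeR adjusted p = 0.000133). Of the lipid carriers, Atg2b was at 66.5 ± 2.42 CPM in FR and 66.7 ± 1.98 CPM in WT, an interval of -0.09 to 0.08 on the log2 scale. Atg2a rose by a log2 fold change of 0.13 ± 0.05 (SE; edgeR adjusted p = 0.0132). That call ended without FR1 (adjusted p = 0.0591), FR2 (0.0555) or WT2 (0.190) and with DESeq2 (0.0606), and over the 16 alternatives the adjusted p ran from 0.00985 to 0.190.

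Conjugation runs along a pair of linked pathways. ATG7, the shared E1-like enzyme, and the E2-like ATG10 join ATG12 to ATG5, and the product binds ATG16L1. That complex acts with ATG7 and the E2-like ATG3 to attach ATG8 proteins to phosphatidylethanolamine. ATG4 proteases trim ATG8 precursors beforehand and release ATG8 from membranes afterwards. Among these 10 genes 2 rose, 3 fell and 5 did not pass.

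The largest rise and the second largest fall of the 37 members stood in this step, on either side of the same chain. Atg12 (ENSMUSG00000032905) was at 58.0, 59.5 and 62.4 CPM in FR and 31.0, 33.7 and 31.4 CPM in WT. Atg3 (ENSMUSG00000022663) had 35.7, 40.3 and 40.4 CPM in FR and 74.5, 73.0 and 71.5 CPM in WT. The lowest FR value of Atg12 lay far above its highest WT value and the order was the opposite for Atg3, with log2 fold changes of 0.90 ± 0.05 and -0.91 ± 0.05 (SE; edgeR adjusted p = 4.45e-16 and 1.57e-16). Within a library, there were 1.63, 1.48 and 1.54 Atg12 counts per Atg3 count in FR and 0.417, 0.462 and 0.440 in WT, which is a 3.52-fold higher ratio in FR.

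The partners of Atg12 showed no such difference. Atg5 was at 30.2, 30.2 and 30.4 CPM in FR and 31.3, 31.2 and 29.6 CPM in WT, and its 95% interval on the log2 scale ran from -0.13 to 0.09. Atg12 counts per Atg5 count came to 1.98 ± 0.0666 in FR and 1.05 ± 0.0469 in WT (SD, n = 3 each). Atg16l1 averaged 38.8 ± 2.22 CPM in FR and 37.7 ± 0.904 CPM in WT, and Atg7 26.2 ± 2.10 CPM in FR and 26.7 ± 1.34 CPM in WT (SD, n = 3 each). Their intervals ran from -0.06 to 0.15 and from -0.15 to 0.11. Atg10, the E2-like enzyme for ATG12, was the least expressed member, with 38, 51 and 43 counts in FR and 56, 80 and 67 in WT, an interval of -0.79 to 0.08 and an edgeR adjusted p of 0.135. Without WT1 it passed (adjusted p = 0.0450), and 0.429 was the highest value over the 16 alternatives.

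**Figure D3:**
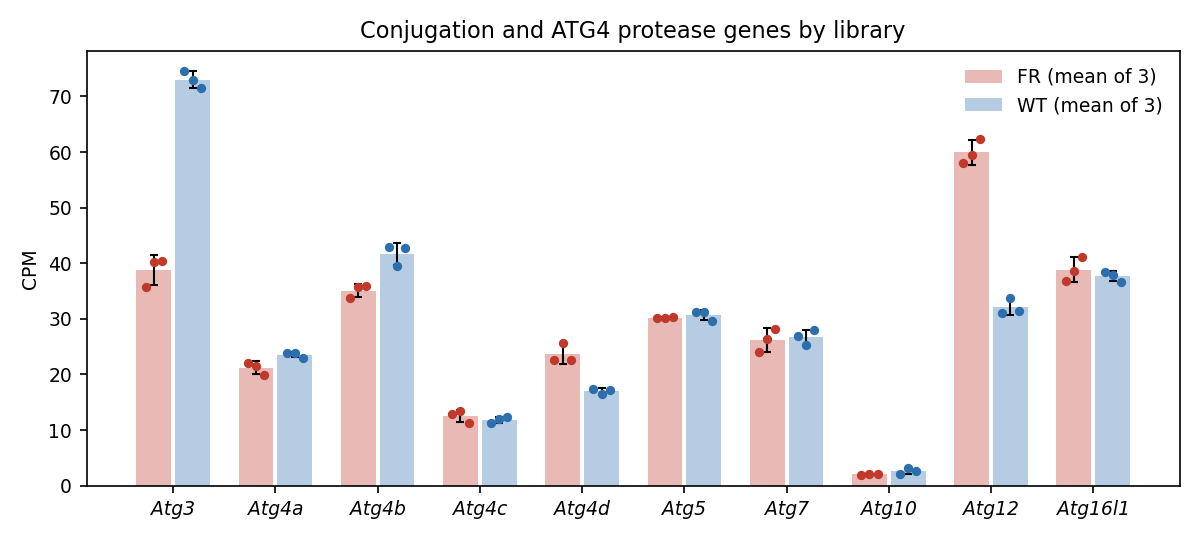
CPM of the 10 conjugation and ATG4 protease genes in FR (red, left) and WT (blue, right), with bars for the mean of 3 libraries, error bars for the SD and points for the libraries. Atg3 stood at 38.8 CPM in FR and 73.0 CPM in WT, Atg12 at 60.0 CPM in FR and 32.1 CPM in WT, and Atg5, Atg7 and Atg16l1 overlapped.

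Of the 4 ATG4 protease genes, Atg4b, the most abundant in CPM, fell to 35.1 ± 1.2 CPM in FR, against 41.7 ± 1.96 CPM in WT (SD, n = 3 each; edgeR adjusted p = 8.86e-05). Atg4d was higher in FR, with 22.6, 25.7 and 22.6 CPM in FR and 17.4, 16.5 and 17.1 CPM in WT (log2 fold change 0.48 ± 0.07 SE; edgeR adjusted p = 6.74e-07). In the GENCODE M21 annotation, however, 1405 exonic bases of Atg4d are shared with Kri1 on the opposite strand, and Kri1 was also higher, at 54.4 ± 1.49 CPM in FR and 39.7 ± 0.912 CPM in WT (log2 fold change 0.45; edgeR adjusted p = 4.71e-10). Whether strand was kept is not stated in the sources used here, so reads from the shared bases cannot be assigned to either gene with certainty. The deposited length of Atg4d is 5951 bases, and the part of such reads in its rise was not tested. Other opposite-strand exon overlaps touched members by name as well. Map1lc3b shares 58 bases with Zcchc14 (110 CPM in FR and 103 CPM in WT) and Atg2b 383 bases with Gskip (9.13 CPM in FR and 16.9 CPM in WT), while Becn1 shares 3104 bases with Cntd1, which had at most 0.378 CPM in any library. Uvrag shares 1589 bases with Gm45187 and Gabarapl1 570 with 1700101I11Rik, at most 0.331 and 0.200 CPM. Sqstm1 shares 580 bases with Mrnip (2.975 CPM in FR and 4.03 CPM in WT). On the same strand, Atg9a shares 1832 bases with Gm29253 (5.94 CPM in FR and 6.91 CPM in WT). Atg4c had 12.5 ± 1.10 CPM in FR and 11.8 ± 0.561 CPM in WT (SD, n = 3 each; edgeR adjusted p = 0.462). Atg4a was lower by a log2 fold change of -0.16 ± 0.06 (SE; edgeR adjusted p = 0.0327), a call that ended without FR3 (adjusted p = 0.144), WT1 (0.0625) or WT2 (0.0591) and with DESeq2 (0.106), in a range of 0.0187 to 0.144.

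Promoter windows from RefSeq (GRCm38.p6, 250 bases before to 50 bases after each listed start) were at hand for 31 of the 37 members. Rb1cc1, Becn1, Pik3c3, Map1lc3a, Atg12 and Atg16l1 had no window and were not searched. The windows at hand were searched on both strands for the E-box CACGTG, for TCACGTGA, which contains it and is the core of the CLEAR element bound by TFEB, and for GTAAACA, a FOXO site. The E-box was found in 4 of the 31 members (12.9%), against 7.15% of all 32851 windows. Those 4 were Atg3, Atg5, Atg7 and Atg14. Of them Atg3 alone passed the test between FR and WT, where 70.1% of all tested genes passed. A link between the motif and the change was not tested. TCACGTGA was found in Atg3 only, and in 0.974% of all windows, while GTAAACA was found in none of the 31 members and in 3.65% of all windows. Some members had more than 1 window (35 windows in all), so a share of members and a share of windows are unlike measures. The Atg3 window is shown because, of the 31 members, Atg3 alone had TCACGTGA or a second E-box, and the E-boxes of the other members are shown with their flanks for comparison. Capitals mark the motif. The Atg3 window lies at chr16:45158579-45158878 on the plus strand. With 10 flanking bases on either side, the other E-boxes lie at chr10:44268315-44268340 (Atg5, plus strand), chr6:114670954-114670979 (Atg7, plus strand) and chr14:47568420-47568445 (Atg14, minus strand). Without the flanks, the E-boxes of Atg5, Atg7 and Atg14 begin 14, 132 and 1 bases before the listed start.
Atg3 promoter: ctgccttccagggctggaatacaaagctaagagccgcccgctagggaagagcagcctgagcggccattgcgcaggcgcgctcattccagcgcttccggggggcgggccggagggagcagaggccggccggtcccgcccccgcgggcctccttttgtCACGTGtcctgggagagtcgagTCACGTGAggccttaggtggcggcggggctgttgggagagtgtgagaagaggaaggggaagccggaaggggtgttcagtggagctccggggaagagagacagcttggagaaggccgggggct
Atg5 E-box: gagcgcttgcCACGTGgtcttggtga
Atg7 E-box: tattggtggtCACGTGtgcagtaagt
Atg14 E-box: aacaaaatccCACGTGactggccctg
A match describes these letters and says nothing of whether a factor binds there.

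The ATG8 genes encode the small proteins that are attached to the autophagosome membrane, mark it and bind receptors. All 5 passed the test, 4 lower and 1 higher in FR, where 70.1% of all tested genes passed. Gabarapl1 (ENSMUSG00000030161), the member with the smallest adjusted p, was at 62.8, 61.5 and 61.3 CPM in FR and 116, 120 and 121 CPM in WT. Gabarap (ENSMUSG00000018567) had 166, 177 and 170 CPM in FR and 218, 226 and 235 CPM in WT. These GABARAP genes, Gabarapl2 aside, were thus lower in every FR library than in any WT library, with log2 fold changes of -0.94 ± 0.04 and -0.40 ± 0.03 (SE; edgeR adjusted p = 1.16e-19 and 5.55e-12).

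Both LC3 genes fell as well. Map1lc3b (ENSMUSG00000031812), the LC3 form most used as an autophagosome marker, was at 92.7, 94.3 and 90.2 CPM in FR and 112, 116 and 116 CPM in WT (log2 fold change -0.31 ± 0.03 SE; edgeR adjusted p = 2.77e-09). Map1lc3a (ENSMUSG00000027602) had 12.9, 12.6 and 14.3 CPM in FR and 16.05, 16.2 and 14.8 CPM in WT (log2 fold change -0.24 ± 0.08 SE; edgeR adjusted p = 0.0105). The FR and WT libraries did not overlap for either gene, although FR3 and WT3 of Map1lc3a came close.

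Gabarapl2 (ENSMUSG00000031950; its product is also called GATE-16) went the other way, with 43.0, 42.8 and 42.7 CPM in FR and 31.4, 33.7 and 31.5 CPM in WT. Its log2 fold change was 0.41 ± 0.05 (SE; edgeR adjusted p = 2.34e-08). Gabarapl2 counts per Gabarapl1 count came to 0.684, 0.695 and 0.698 in FR and to 0.271, 0.280 and 0.261 in WT, a 2.56-fold higher ratio in FR.

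**Figure D4:**
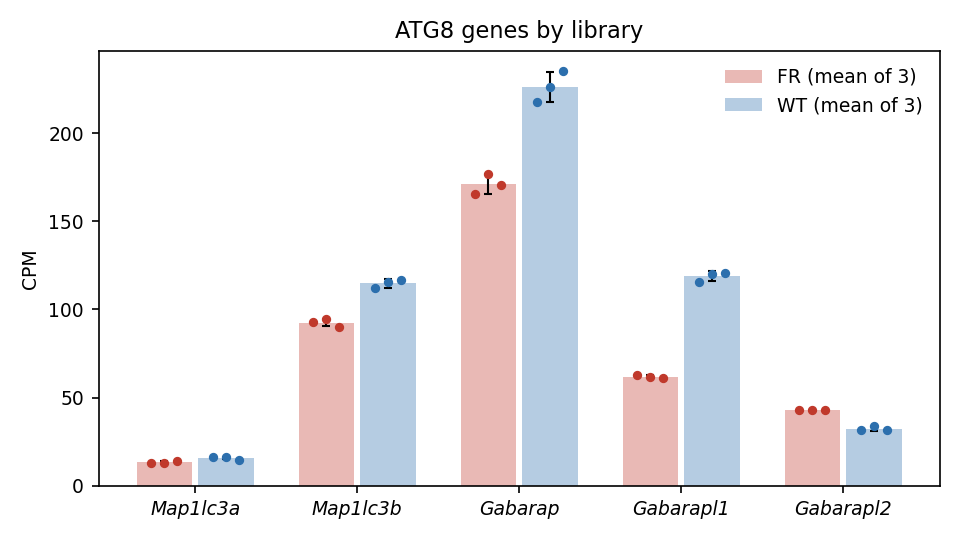
CPM of the 5 ATG8 genes in FR (red, left) and WT (blue, right), with bars for the mean of 3 libraries, error bars for the SD and points for the libraries. Gabarapl1 stood at 61.9 CPM in FR and 119 CPM in WT, and Gabarapl2 at 42.8 CPM in FR and 32.2 CPM in WT.

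Summed over the 5 genes, ATG8 counts came to 377, 388 and 379 CPM in FR and 493, 512 and 518 CPM in WT, so the FR sum was 75.1% of the WT sum. This sum is of counts and not of transcripts. Longer genes weigh more in it, so the percentage would differ per kilobase. Per kilobase of the deposited gene length, Gabarapl1 held 36.6% ± 0.766 of the ATG8 total in FR and 47.5% ± 0.178 in WT (SD, n = 3 each), and Gabarap held 40.3% ± 0.938 in FR and 36.0% ± 0.565 in WT. Gabarapl2 held 8.14% ± 0.0994 in FR and 4.13% ± 0.162 in WT. The deposited length of Gabarapl1 is 539 bases, while its longest protein-coding transcript in GENCODE M21 has 1820 bases. With that length its share was 14.6% in FR and 21.1% in WT, and Gabarap led in both groups with 54.3% in FR and 54.1% in WT. The share of Gabarapl1 was lower in FR with either length, but its rank against Gabarap in WT was set by the length used.

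The Gabarapl1 and Gabarapl2 promoter windows are shown because these paralogues moved in opposite directions. Neither holds an exact match to any of the 3 motifs, so no letters are in capitals. Variants of the motifs that differ in a letter were not searched. Their GC content was 46.3% and 60.0%, with 12 and 20 CpG dinucleotides, against medians of 52.7% and 7 over all windows. They lie at chr6:129532942-129533241 and chr8:111940453-111940752, both on the plus strand.
Gabarapl1 promoter: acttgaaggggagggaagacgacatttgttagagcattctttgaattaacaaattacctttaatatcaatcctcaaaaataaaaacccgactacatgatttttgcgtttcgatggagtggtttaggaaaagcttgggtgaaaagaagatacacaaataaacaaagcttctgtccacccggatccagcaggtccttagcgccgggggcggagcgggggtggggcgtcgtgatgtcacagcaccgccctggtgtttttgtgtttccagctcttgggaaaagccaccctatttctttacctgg
Gabarapl2 promoter: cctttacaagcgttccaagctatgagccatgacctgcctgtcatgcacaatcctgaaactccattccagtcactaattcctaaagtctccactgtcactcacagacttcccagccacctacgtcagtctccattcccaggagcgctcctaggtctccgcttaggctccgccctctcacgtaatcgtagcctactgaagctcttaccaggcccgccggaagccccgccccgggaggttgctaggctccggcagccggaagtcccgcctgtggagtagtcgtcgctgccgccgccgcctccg

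Receptors link cargo to ATG8 proteins. Sqstm1 (ENSMUSG00000015837) encodes p62, a receptor for ubiquitinated proteins that is itself broken down by autophagy, and it was the most abundant member, per length as well as in CPM. It was at 634, 646 and 634 CPM in FR and 603, 605 and 616 CPM in WT. The groups did not overlap, but the log2 fold change was 0.07 ± 0.02 (SE; edgeR adjusted p = 0.00974), with a 95% interval that ended at 0.12. The call ended without FR2 (adjusted p = 0.0656), WT1 (0.100) or WT2 (0.115) and with no filter (0.171), and over the 16 alternatives the adjusted p ran from 0.00511 to 0.171. Nbr1 (ENSMUSG00000017119), a receptor that works alongside p62, showed a larger rise, with 147, 139 and 136 CPM in FR and 112, 111 and 114 CPM in WT (log2 fold change 0.32 ± 0.03 SE; edgeR adjusted p = 1.38e-09).

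Pink1 (ENSMUSG00000028756) encodes the kinase that marks damaged mitochondria for removal. It was at 18.1, 19.1 and 20.5 CPM in FR and 29.7, 26.4 and 28.4 CPM in WT. This was the third largest fall among the members (log2 fold change -0.55 ± 0.07 SE; edgeR adjusted p = 1.91e-08), and no FR library reached a WT one. Optn (ENSMUSG00000026672), a receptor used in mitochondrial removal, had 19.5, 22.1 and 22.8 CPM in FR and 23.7, 24.6 and 23.7 CPM in WT (log2 fold change -0.16 ± 0.07 SE; edgeR adjusted p = 0.0353). Its call ended without FR1 (adjusted p = 0.163), WT2 (0.0781) or WT3 (0.0536) and with DESeq2 (0.102), with 0.0183 as the lowest and 0.163 as the highest value over the 16 alternatives.

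Tax1bp1 (ENSMUSG00000004535), a receptor for aggregates and ferritin-laden cargo, was the second most abundant receptor in CPM and did not pass. It had 160, 161 and 171 CPM in FR and 163, 171 and 167 CPM in WT, with an interval of -0.09 to 0.04 on the log2 scale. Calcoco1 (ENSMUSG00000023055), a receptor for the endoplasmic reticulum and Golgi, was at 21.034, 21.3 and 22.1 CPM in FR and 20.0, 20.0 and 21.025 CPM in WT. FR1 and WT3 were all but equal, and it did not pass either (edgeR adjusted p = 0.302; interval -0.06 to 0.21).

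The wider pathway was described on 5 further lists, whose counts stand against 34.6% of all tested genes higher and 35.5% lower in FR, with a median log2 fold change of 0.00. Of 20 tested genes for other core and membrane-supply factors, 4 rose and 13 fell (median log2 fold change -0.21). Vmp1, which encodes an endoplasmic reticulum scramblase needed for autophagosome formation, had 63.1 ± 0.778 CPM in FR and 121 ± 2.48 CPM in WT (log2 fold change -0.94 ± 0.03 SE; edgeR adjusted p = 8.71e-20). Rab1a, a GTPase of early secretory traffic, fell as well (-0.46 ± 0.03 SE), while Nrbf2, a subunit of the ATG14-containing lipid kinase complex, rose (0.32 ± 0.06 SE; edgeR adjusted p for both 9.48e-06 or smaller). Of 19 tested genes for fusion with the lysosome, 4 rose and 12 fell (median -0.22). Lamp1, a lysosomal membrane protein gene, was at 645 ± 0.829 CPM in FR and 895 ± 10.2 CPM in WT (SD, n = 3 each), and the GTPase gene Rab7 fell too (-0.32 ± 0.03 SE). Vps33a, of the tethering complexes that prepare fusion, rose (0.30 ± 0.04 SE).

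Upstream of initiation, mTORC1 holds ULK1 inactive when nutrients are plentiful and AMPK activates it when energy is low. Of 36 tested genes of this control, 10 rose and 19 fell (median -0.17), where 34.6% and 35.5% of all tested genes did. Mtor, the kinase itself, was at 74.8 ± 3.14 CPM in FR and 47.3 ± 0.957 CPM in WT (SD, n = 3 each; log2 fold change 0.66 ± 0.04 SE; edgeR adjusted p = 2.55e-14). Sesn3, an inhibitor of mTORC1, fell to 46.6 ± 1.39 CPM in FR, against 145 ± 4.15 CPM in WT (-1.64 ± 0.04 SE; edgeR adjusted p = 6.31e-25), and Lamtor3, part of the complex that anchors mTORC1 to the lysosome, fell as well (-0.76 ± 0.04 SE). Rragd, a GTPase of that anchor named after its values were seen, had the largest fall of the list, with 1.66 ± 0.320 CPM in FR and 8.92 ± 0.371 CPM in WT.

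Of 11 tested transcription factors of autophagy genes, 3 rose and 6 fell (median -0.21), against the same 34.6% and 35.5% of all tested genes. Foxo3, which in muscle is known to drive autophagy genes, was at 66.3 ± 2.27 CPM in FR and 136 ± 3.63 CPM in WT (SD, n = 3 each; log2 fold change -1.04 ± 0.04 SE; edgeR adjusted p = 1.82e-20). Srebf2, better known for cholesterol synthesis, fell (-0.40 ± 0.03 SE) and Atf4, the integrated stress response factor, rose (0.28 ± 0.02 SE). Tfeb, Tfe3 and Mitf, related factors known for lysosomal genes and named after their values were seen, did not move together. Tfeb and Tfe3 were lower, Tfeb with 8.28 ± 0.834 CPM in FR and 11.5 ± 1.05 CPM in WT and Tfe3 with 59.6 ± 2.65 CPM in FR and 68.8 ± 2.01 CPM in WT (SD, n = 3 each). Mitf was higher, with 5.22 ± 0.620 CPM in FR and 4.08 ± 0.25 CPM in WT (SD, n = 3 each; log2 fold change 0.35 ± 0.14 SE; edgeR adjusted p = 0.0336). The call of Mitf ended without FR1 (adjusted p = 0.161), FR3 (0.0631), WT1 (0.116) or WT3 (0.0672), with no filter (0.0763) and with DESeq2 (0.0990), in a range of 0.0208 to 0.161. Of 18 tested genes for other selective receptors and adaptors, 4 rose and 6 fell (median 0.00). Ncoa4, the receptor for ferritin, led with 247 ± 3.57 CPM in FR and 144 ± 1.10 CPM in WT (SD, n = 3 each; log2 fold change 0.78 ± 0.03 SE; edgeR adjusted p = 4.98e-20). Retreg1, a receptor for the endoplasmic reticulum, and Fkbp8, a mitochondrial one, fell (-0.49 ± 0.05 and -0.29 ± 0.04 SE).

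**Figure D5:**
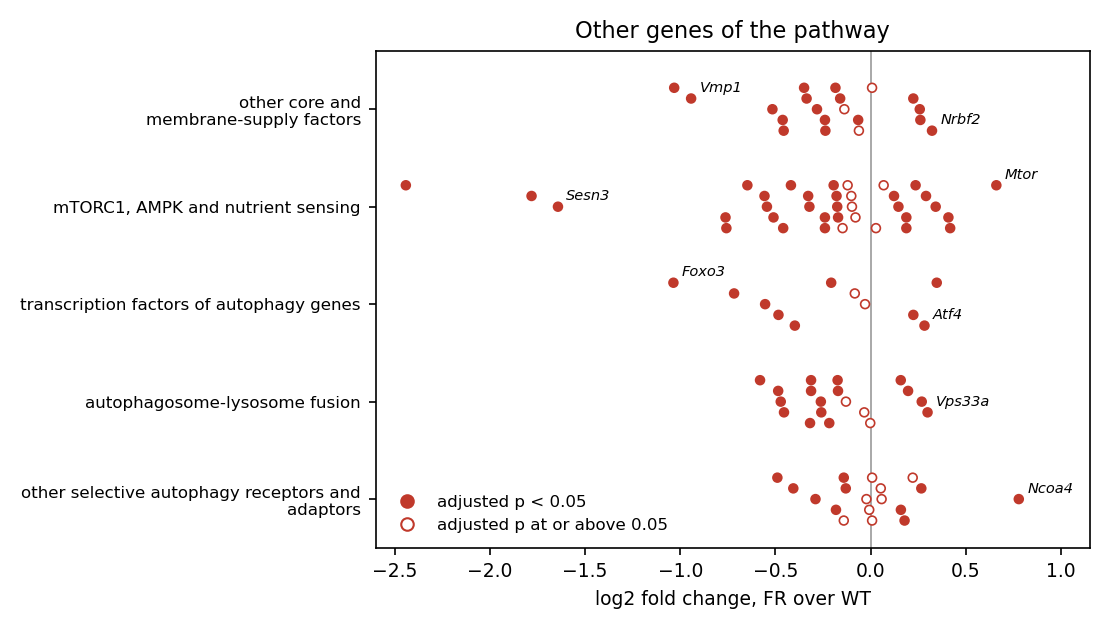
Log2 fold change of FR over WT for the tested genes of 5 further lists of the pathway, each point a gene, filled where the edgeR adjusted p is under 0.05, with the vertical spread for legibility only. Foxo3, Sesn3 and Vmp1 lie far to the left of zero and Mtor and Ncoa4 to the right.

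In the annotation deposited with the table, 30 of the 37 members carried the KEGG term for animal autophagy and 19 the Gene Ontology term for autophagosome assembly. The other genes of these terms are counted beside 34.6% of all tested genes higher and 35.5% lower. Only the 37 members were left out, so genes of the 5 lists above can recur here. A gene can also carry more than 1 of the terms, so the counts are not independent. Of the 115 other tested genes with that KEGG term, 34 were higher, 57 lower and 24 not called, with a median log2 fold change of -0.115 and a median absolute one of 0.27. Changes of at least 1.5-fold were found in 16 of them, 3 higher and 13 lower. Of all tested genes 30.4% changed that much, 12.9% higher and 17.5% lower. Of the 26 other tested genes of autophagosome assembly, 5 were higher and 16 lower, with a median of -0.21. Of 43 other tested genes with the Gene Ontology term for the autophagosome, 17 were higher and 17 lower (median 0.06). Of 91 with the term for autophagy, 30 were higher and 38 lower (median -0.04), and of 54 with the KEGG term for animal mitophagy, 21 were higher and 18 lower (median -0.0068).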

How the data were processed

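The values are RSEM expected counts, deposited by the authors in 1 table covering 6 libraries. The submitters' processing notes list fastp, HISAT and RSEM with GRCm39. Versions, settings and annotation release are not given in the sources used here. The deposited table also holds group means, which were not used, and a gene length of unstated definition, the other measure used here. Expected counts (85.9% exactly whole, zeros included) were rounded, filtered with filterByExpr, scaled with TMM and tested in edgeR 4.0.16 (R 4.3.3) by quasi-likelihood with robust fitting, FR over WT with no further term. P-values were adjusted by Benjamini-Hochberg over all 14889 tested genes (threshold 0.05). SE and 95% intervals come from that fit. The common biological coefficient of variation was 3.25%. The fit was tested on simulated counts. RSEM divides reads shared between near-identical genes by estimation.

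Alternatives were other scalings and filters, a fit that is not robust, a replicate block, each library left out, DESeq2 1.42.0, limma-voom (limma 3.58.1), and abundant genes or assembled loci left out. Members, steps and lists were chosen with earlier results of these data known. Libraries are printed for members changed at least 1.5-fold, for the 2 smallest adjusted p of a step and the smallest in the other direction, and for all ATG8 genes and receptors, besides Rb1cc1, Atg5, Atg10 and Atg4d, chosen after their values were seen. Of each list the gene with the smallest adjusted p in each direction and the next smallest are named. Overlaps and transcript lengths come from GENCODE M21 (GRCm38), another build than that of the counts. Coordinates are given for the RefSeq promoter windows only, on GRCm38.p6. Figures used matplotlib 3.10.9 in Python 3.11.15.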

Additional observations from a re-analysis of the deposited data

How the results depend on the processing

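Over the 16 alternatives, 21 to 25 members were called, 10 to 13 of them higher and 10 to 13 lower, and 3 or 4 at least 1.5-fold. Among all genes, 9518 to 10931 were called over the same alternatives, against 10440 in the main fit. Leaving out single libraries gave 21 to 24 called members and 9968 to 10221 called genes. Of 592 log2 fold changes of members under these alternatives, 554 had the direction and side of the threshold reported, 22 lost the call, 6 gained it and 10 changed sign. The sign changes concerned members that did not pass. With no filter Ulk2 was at -0.013, and with single libraries left out Ulk2 ranged from -0.016 to 0.017, Atg7 from -0.081 to 0.021, Atg14 from -0.0014 to 0.12, Atg2b from -0.045 to 0.0072 and Atg16l1 from -0.0024 to 0.069. The cause was not tested. The 22 lost calls all fell on Atg13, Pik3r4, Atg2a, Atg4a, Sqstm1 and Optn. With the replicate number as a block, 25 members were called, and the log2 fold changes moved by at most 0.0042, while Mitf of the pathway lists had an adjusted p of 0.0509. No pairing by number was seen: deviations of same-numbered libraries correlated at -0.0011, -0.018 and -0.036 across genes. Those of libraries with unlike numbers correlated at -0.0285 to 0.0456. Whether a weak pairing would show in this way was not tested. DESeq2 called 21 members, 11 higher and 10 lower. The ATG8 shares per kilobase moved with the transcript length used, which was chosen after seeing the data. Atg10, with the fewest counts, had the widest interval.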
